A study of Mus musculus with 22 samples.

Results

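The Hox genes encode homeodomain transcription factors and lie in 4 clusters, Hoxa to Hoxd. Of the 39 mouse Hox genes, 38 were described here across the mouse brain, and the other was not analysed here. The clusters lie on chromosomes 6 (Hoxa), 11 (Hoxb), 15 (Hoxc) and 2 (Hoxd). The 38 genes were among 20129 gene symbols on the arrays. Each gene was read from the RefSeq-identified probe with the highest median over 22 arrays. The members are genes of a named family, and they were chosen with earlier results of these data known. They were 10 Hoxa, 10 Hoxb, 9 Hoxc and 9 Hoxd genes, and by paralogue number 7 belonged to groups 1 to 3, 7 to groups 4 to 5, 8 to groups 6 to 8 and 16 to groups 9 to 13.

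The study sliced whole brains of male C57BL/6J mice along 1 body axis each and measured the total RNA of consecutive slabs, called fractions, on 1-colour microarrays. There were 10 coronal, 6 horizontal and 6 sagittal fractions, and each plane came from its own animal, 3 mice in all. No mouse carried a treatment or an engineered allele as far as the labels say. Coronal fraction 10 joined slabs 10 and 11, sagittal fraction 1 joined slabs 1 and 2, and sagittal fraction 6 joined slabs 7 to 9. The age was 7 days by the titles and 3 days by the age field of the labels, and the labels gave a slab width of 500 µm. The study lists its dataset of 22 fractions as the 7-day brain, with a thicker slab than that of the labels. Which end was numbered 1 was not stated. A fraction was measured on 1 array with no replicate, so a difference between 2 fractions had no replicate check, and precision was limited by how many arrays there were.

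Hox genes within a cluster are arranged so that paralogue number, from 1 at one end to 13 at the other, follows the order in which the genes are expressed along the body axis, a property called collinearity. In the embryo the low-numbered genes have their front limit of expression in the hindbrain, and the high-numbered genes are expressed progressively further toward the tail of the spinal cord. The forebrain and midbrain lie in front of all these limits. Hox proteins bind DNA together with cofactors of the Pbx and Meis families, and retinoic acid is a known inducer of the low-numbered genes.

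Promoter windows of 3 genes are shown because these genes differed in the number of coronal fractions that detected them: Hoxb4 and Hoxc4 of paralogue group 4 were detected in several coronal fractions and Hoxb8 in 1. Each window runs from 250 bases before to 50 bases after a transcript start in RefSeq (build GRCm38.p6, plus strand). It is chr11:96318017-96318316 for Hoxb4, chr15:103034145-103034444 for Hoxc4 and chr11:96281655-96281954 for Hoxb8. Capitals mark matches, on either strand, to 4 motifs. The retinoic acid receptor half-site was searched as AGGTCA. The CCAAT box was searched by its name's letters. The TATA box was searched as TATAAA. The joint Hox and Pbx site was searched as TGATNNAT. No match overlapped one of another motif in these 3 windows.
Hoxb4: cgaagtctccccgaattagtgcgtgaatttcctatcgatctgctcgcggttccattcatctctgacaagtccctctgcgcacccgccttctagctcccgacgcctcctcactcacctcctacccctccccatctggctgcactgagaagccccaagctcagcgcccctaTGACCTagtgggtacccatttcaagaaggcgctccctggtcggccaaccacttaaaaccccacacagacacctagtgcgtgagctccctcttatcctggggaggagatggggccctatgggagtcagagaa
Hoxc4: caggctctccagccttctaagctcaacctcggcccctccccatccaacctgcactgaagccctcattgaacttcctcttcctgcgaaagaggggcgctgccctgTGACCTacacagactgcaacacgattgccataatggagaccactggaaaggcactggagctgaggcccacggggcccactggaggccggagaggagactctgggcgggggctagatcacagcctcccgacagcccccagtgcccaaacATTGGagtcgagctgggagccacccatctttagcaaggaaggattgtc
Hoxb8: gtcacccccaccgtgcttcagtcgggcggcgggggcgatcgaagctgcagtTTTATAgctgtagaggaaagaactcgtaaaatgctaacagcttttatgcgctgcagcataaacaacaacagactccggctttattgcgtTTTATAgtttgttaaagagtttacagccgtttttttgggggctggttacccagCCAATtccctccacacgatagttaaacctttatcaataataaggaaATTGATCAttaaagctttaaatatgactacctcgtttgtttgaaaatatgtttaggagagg
The Hoxb4 and Hoxc4 windows each held the half-site, and the Hoxb8 window held no half-site but a Hox and Pbx site. The half-site was also found for Hoxd8, which was detected nowhere, and Hoxd10, detected on 2 arrays, and not for Hoxa2 or Hoxa3, and the Hoxa2 window held a Hox and Pbx site. RefSeq windows were at hand for 22 members (24 windows), and 7 of the 24 held the half-site, or 29.2%, against 16.3% of 32851 promoter windows of the same length. A CCAAT box was found in 62.5% of the Hox windows and 37.4% of all windows, a TATA box in 16.7% and 13.6%, and a Hox and Pbx site in 16.7% and 8.85%. A match is a run of letters and not a measured binding site.

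A level is log2 of a probe's processed intensity minus log2 of its array's 75th percentile, so 0 is the 75th percentile of that array. A probe was called detected on an array when the scanner software called its signal well above the local background. Levels are compared here only within a probe. Arrays had between 29605 and 41965 detected probes. On 7 arrays, coronal fractions 1 and 2, horizontal fractions 1 to 3 and sagittal fractions 1 and 3, the scanner software put the slope of the spike-in controls out of its range, and the dim spike-in a107 read between 6.4 and 8.02 (log2 intensity) there against 3.2 to 4.95 on the other 15. Coronal fraction 2 was alone on its slide, coronal fractions 1 and 3 to 8 shared another, coronal fractions 9 and 10 shared a slide with the sagittal series, and the horizontal series had its own. Slide and the horizontal series therefore cannot be told apart.

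Markers of brain regions gave the orientation. Of 6 caudal brainstem markers on the array, 4 were highest in coronal fraction 1, and 4 fell along the coronal series, among them Glra1 (-2.64 in fraction 1, -3.74 in fraction 2 and not detected beyond fraction 4), which encodes a glycine receptor subunit of brainstem and spinal cord. Prrxl1 of the same list was detected in none of the fractions. All 8 forebrain markers rose with coronal fraction number, as did all 5 olfactory bulb markers, each of which was highest in fraction 10. Of 6 cerebellar markers 5 were tested and 4 fell, and none of 4 tested midbrain markers passed. Coronal fraction 1 is called the caudal end here. These markers gave no common peak in the other planes. Mab21l2 was highest in horizontal fraction 5 and sagittal fraction 3, while Glra1 and Lmx1b were highest in horizontal fraction 2, Tlx3 in fraction 4 and Lbx1 in fraction 1.

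Of the 38 Hox genes, 31 were detected in at least 1 fraction and 7 in none (Hoxa11, Hoxb13, Hoxc8, Hoxc9, Hoxd8, Hoxd12 and Hoxd13). A gene was tested when its probe was detected somewhere in the coronal, in the horizontal and in the sagittal series, which 26 genes passed and 12 did not. The same filter passed 39621 of the 55600 probes with a value on every array. Besides the 7, Hoxc11, Hoxd1, Hoxd9, Hoxd10 and Hoxd11 failed this filter, each detected on at most 3 arrays. All 7 genes of paralogue groups 4 to 5 were tested, 6 of 7 in groups 1 to 3, 6 of 8 in groups 6 to 8 and 7 of 16 in groups 9 to 13. By cluster 9 Hoxa, 9 Hoxb, 6 Hoxc and 2 Hoxd genes were tested.

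**Figure D1:**
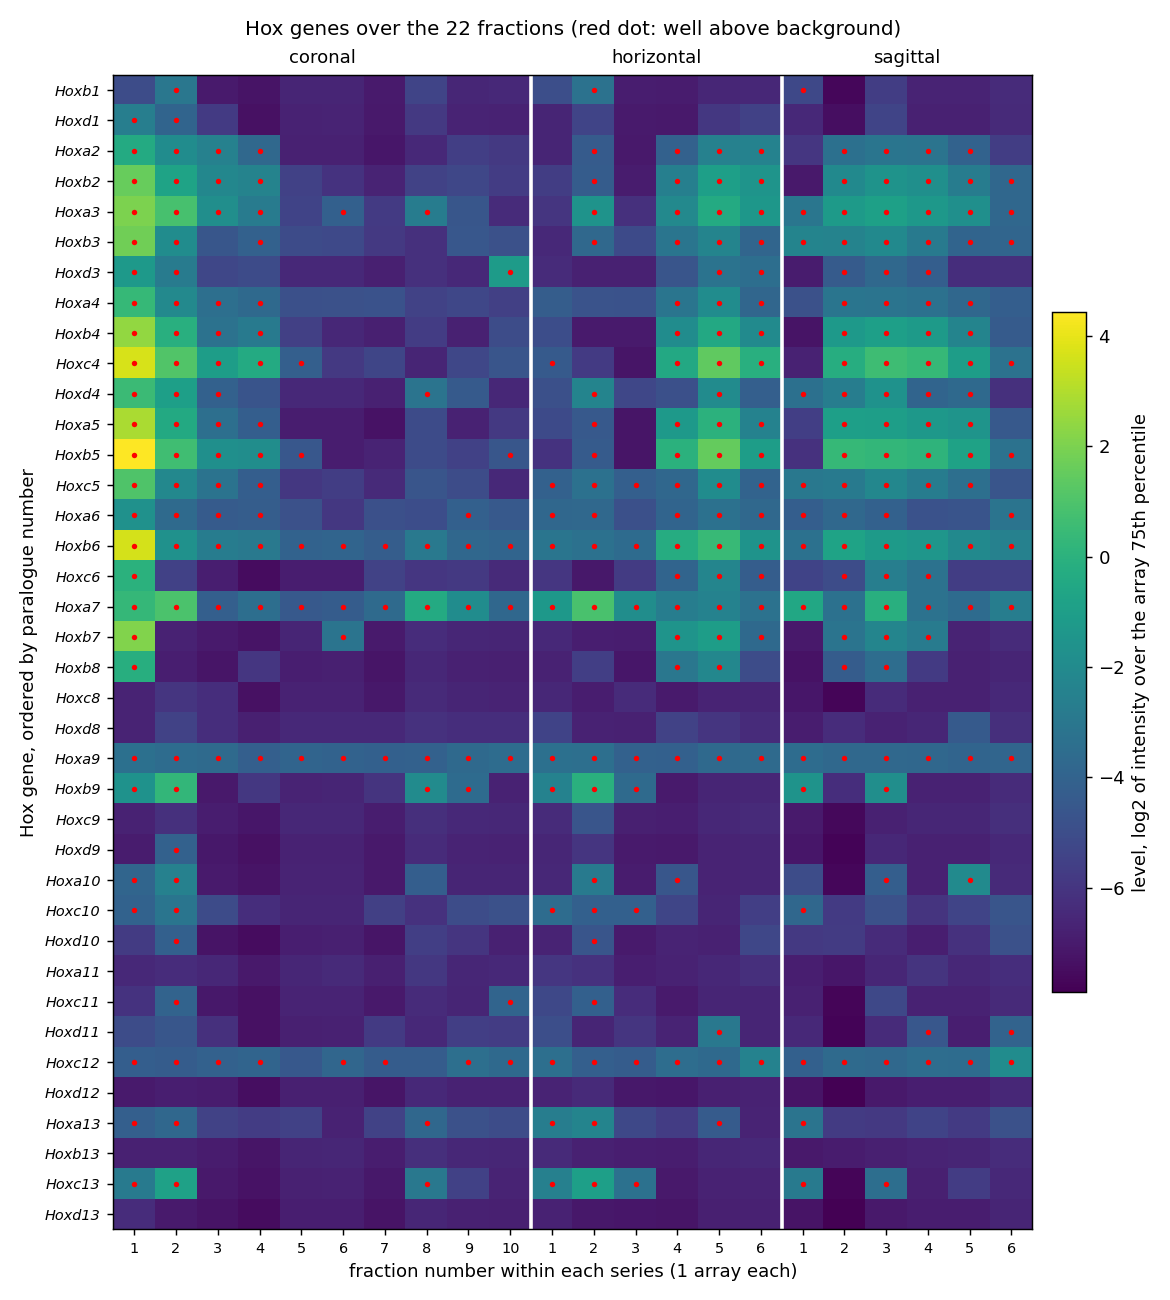
Level (colour, log2 of intensity over the array's 75th percentile) of 38 Hox genes (rows, by paralogue number) in the 22 fractions (columns, 1 array each), with a red dot where the probe was well above background. Colours are to be read along a row. All 7 genes of groups 4 to 5 were brightest along the coronal series in fraction 1 and detected in horizontal fraction 5 and in sagittal fractions 2 to 5.

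Most tested Hox genes of groups 1 to 5 fell from the caudal end of the coronal series. Position along the series was tested for all 39621 detected probes with limma (a straight and a curved term for each series, fitted on all 22 arrays, Benjamini-Hochberg adjusted over all probes). Both terms were tested together for the coronal and the horizontal series and each alone for the sagittal series. A gene that passed is said to rise or fall by the sign of its straight term. Along the coronal axis 16 of the 26 tested Hox genes passed, against 19.8% of all probes, and all 16 fell with fraction number by the straight term, against 7.43% of all probes. They were 5 of 6 tested genes in groups 1 to 3, all 7 in groups 4 to 5, 2 of 6 in groups 6 to 8 and 2 of 7 in groups 9 to 13. Without the 7 arrays with the spike-in slope out of range, which hold coronal fractions 1 and 2, 7 genes passed, all among the 16 (1 of them, Hoxd3, with its straight term turned), against 10.4% of all probes in that fit. Without coronal fraction 1 alone 11 genes passed, against 27% of all probes. Fewer Hox-expressing cells in a slab and less RNA per cell cannot be told apart in such samples.

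In paralogue groups 1 to 3, Hoxa2, the Hox gene that reaches furthest forward in the embryonic hindbrain, had levels of -0.38, -1.92, -2.5 and -3.71 in coronal fractions 1 to 4, all detected, and was not detected in the other 6. Its paralogue Hoxb2 had 1.59, -0.72, -2.21 and -2.37 in the same 4 fractions and was not detected further forward. Both fell (adjusted p = 0.00109 for Hoxa2 and 0.00142 for Hoxb2, limma). Hoxa3, expressed in the caudal hindbrain of the embryo, had 2.02, 0.84, -1.78 and -2.78 in fractions 1 to 4, and was also detected in fraction 6 (-4.13) and fraction 8 (-2.7). Hoxb3 had 1.78 in fraction 1 and -1.9 in fraction 2, was not detected in fraction 3 and read -4.05 in fraction 4. Hoxa3 (adjusted p = 0.01) and Hoxb3 (adjusted p = 0.0011) fell. The Hoxa3 call was lost with slide as a block (adjusted p = 0.112), with the coronal arrays alone (0.0503), without coronal fraction 1 (0.0505) and without the 7 arrays (0.271), and the Hoxb3 call without the 7 arrays (0.281). A second Hoxb3 probe followed the first less closely (r = 0.744 over 22 fractions) and also passed (adjusted p = 0.000828).

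Hoxd3 also passed (adjusted p = 0.00161, limma) but with a course of its own. It had -1.2 in fraction 1, -2.79 in fraction 2 and -1.11 in fraction 10 at the other end of the brain, and was not detected in the 7 fractions between. Its straight term turned positive without coronal fraction 1, and the call was lost with a straight term only (adjusted p = 0.567). Hoxb1 and Hoxd1 of group 1 were detected on 3 and 2 arrays, and Hoxb1 was highest in coronal fraction 2 (-3.01) and did not pass (adjusted p = 0.261). The 3 arrays that detected Hoxb1 were all among the 7 with the spike-in slope out of range.

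All members of groups 4 to 5 fell along the coronal series. Hoxb5 had 4.44, 0.68, -1.75, -1.83 and -4.55 in fractions 1 to 5, not detected in fractions 6 to 9, and -4.58 in fraction 10. Hoxc4 had 3.69, 1.1, -1.05, -0.35 and -4.17 in fractions 1 to 5 and was not detected beyond. Hoxb4 had 2.42, -0.12, -3.23 and -2.83 in fractions 1 to 4 and was not detected beyond. These 3 genes covered the caudal 4 to 5 fractions and shared a small rise or a flat step between fractions 3 and 4.

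Hoxa4 had 0.35, -2.11, -3.4 and -3.67 and Hoxa5 had 2.85, -0.41, -3.39 and -4.21 in fractions 1 to 4, and neither was detected beyond. Hoxc5 had 1.04, -2.15, -3.19 and -4.21 in the same fractions. Hoxd4 had 0.53, -0.93 and -4.05 in fractions 1 to 3 and was detected again in fraction 8 (-3.15). Adjusted p in the 7 genes lay between 7e-04 (Hoxa4) and 0.0206 (Hoxd4) in limma. Without the 7 arrays the calls of Hoxa5 (adjusted p = 0.104) and Hoxc5 (0.195) were lost. For Hoxd4 the call was lost with a107 as a covariate (0.076), with slide as a block (0.13), with a straight term only (0.0788), with the coronal arrays alone (0.091), without coronal fraction 1 (0.164), without coronal fraction 2 (0.0662) and without the 7 arrays (0.88).

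Of the 8 genes of groups 6 to 8, 2 passed, 4 were tested without passing and 2 were detected in no fraction. Hoxb6 had 3.65 in fraction 1, -1.66 in fraction 2 and between -4.25 and -2.72 in the other 8, detected throughout, and it fell (adjusted p = 0.00806, limma). The call was lost without coronal fraction 1 (adjusted p = 0.23), without the 7 arrays (0.335), with a straight term only (0.0587) and with the coronal arrays alone (0.0598). Hoxb7 had 2.1 in fraction 1, was not detected in fraction 2 and was detected elsewhere only in fraction 6 (-3.14). Hoxb8 (-0.17) and Hoxc6 (-0.04) were detected in fraction 1 and in no other coronal fraction. Their curves did not pass the test, with adjusted p of 0.207 for Hoxb7, 0.104 for Hoxb8 and 0.0737 for Hoxc6, in a fit of 1 smooth curve through 10 points. With coronal arrays limited to the 7 of one slide, chosen after seeing the data, 20 Hox genes passed, 14 of them among the 16, against 4018 of all 39621 probes in that fit.

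Hoxa6 had -1.68 in fraction 1, -3.64, -4.37 and -4.26 in fractions 2 to 4 and -4.14 in fraction 9, and fell (adjusted p = 0.00657, limma). Its adjusted p was 0.138 under quantile normalization, 0.156 with a straight term only, 0.125 without coronal fraction 1 and 0.0517 with the coronal arrays alone. Without the 7 arrays it was 0.297 and the straight term turned. Hoxa7 was detected in all 22 fractions and was higher in coronal fraction 2 (0.96) than in fraction 1 (0.32), with -0.36 in fraction 8. It did not pass (adjusted p = 0.2). Hoxc8 and Hoxd8 of group 8 were detected in no fraction.

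**Figure D2:**
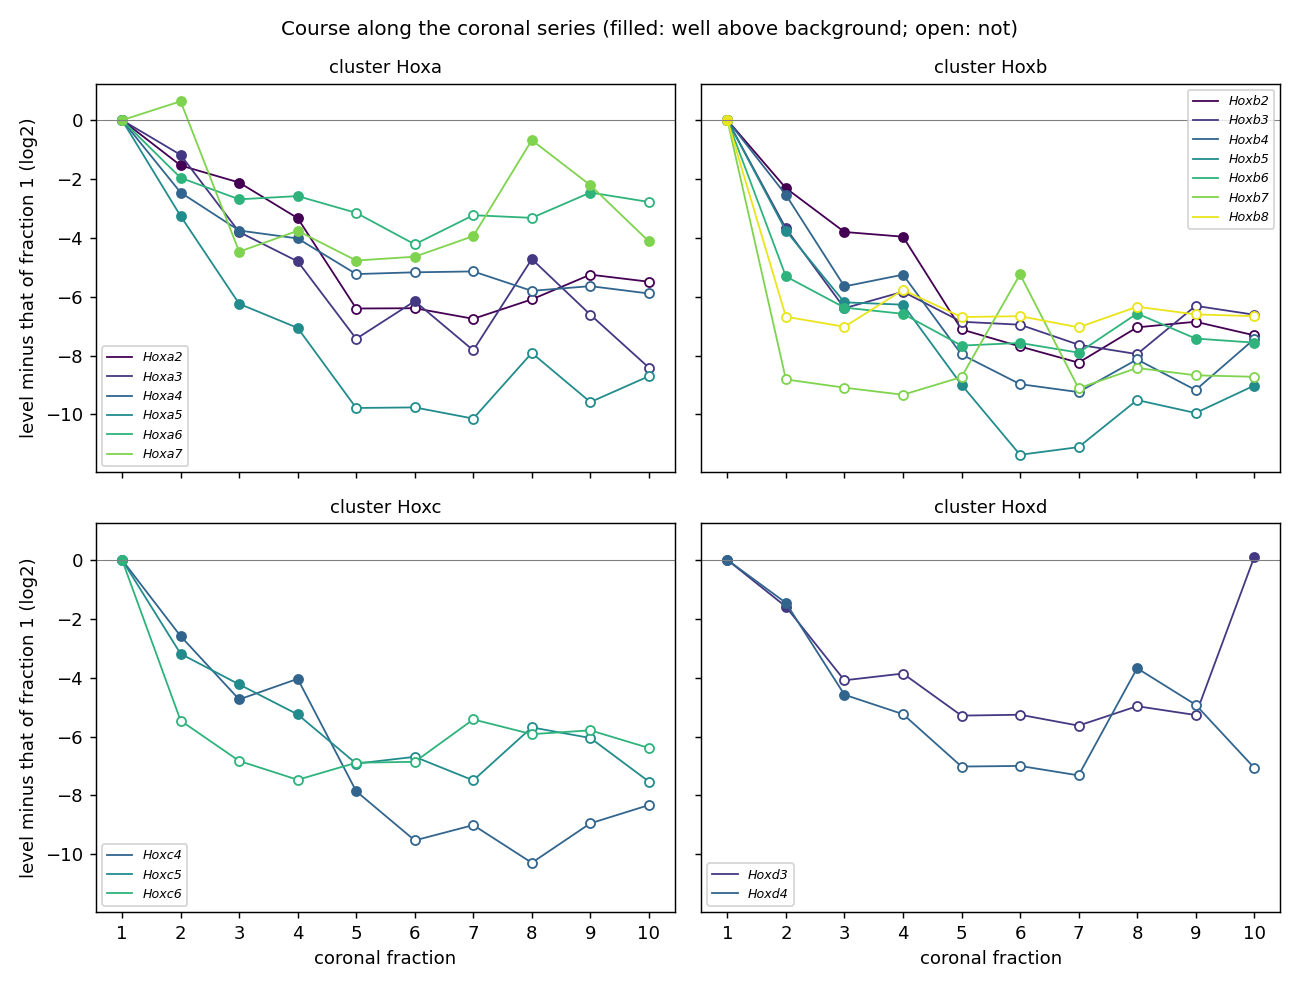
Level minus the level in coronal fraction 1 (log2, vertical axis) against coronal fraction (horizontal axis) for members of groups 2 to 8 detected in fraction 1, 1 panel per cluster, with filled points where the probe was well above background and open points where it was not. Hoxb7, Hoxb8 and Hoxc6 were at background by fraction 2, and Hoxd3 returned to its fraction 1 level in fraction 10.

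The step from coronal fraction 1 to fraction 2, as level in 1 minus level in 2, differed among the Hoxb genes. It was 2.31 (log2) for Hoxb2, 3.68 for Hoxb3, 2.54 for Hoxb4, 3.76 for Hoxb5 and 5.31 for Hoxb6, that is 39.8-fold for Hoxb6. Hoxb7 and Hoxb8 were not well above background in fraction 2, so their steps are bounds against the dimmest detected signal of that array: at least 113-fold lower for Hoxb7 and at least 23.5-fold lower for Hoxb8. Hoxb9 was higher in fraction 2 (step of -1.87). In Hoxc the step was 2.58 for Hoxc4, 3.19 for Hoxc5 and at least 25.8-fold for Hoxc6.

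In Hoxa the step was 1.54 for Hoxa2, 1.18 for Hoxa3, 2.46 for Hoxa4, 3.26 for Hoxa5, 1.95 for Hoxa6 and -0.64 for Hoxa7. In Hoxd it was 1.31 for Hoxd1, 1.59 for Hoxd3 and 1.45 for Hoxd4. Across the 16 genes of groups 1 to 8 measured in both fractions the rank correlation of the step with paralogue number was 0.32, with the bounds of Hoxb7, Hoxb8 and Hoxc6 left out. Over all 23 measured genes it was -0.52, and the 7 genes of groups 9 to 13 had a median step of -0.89. For comparison, 35764 probes detected on both arrays had a median step of 0.02, with the middle 90% between -1.56 and 1.06.

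Fraction 2 lay on a slide of its own, whereas fractions 1 and 3 shared a slide, and the step from 1 to 3 was therefore also taken. Its median was 3.8 over the 3 measured genes of groups 1 to 3, 4.73 over the 7 of groups 4 to 5, 4.47 over the 3 of groups 6 to 8 and 0.08 over the 2 of groups 9 to 13. Over 30980 probes detected on both arrays the median was -0.04, with the middle 90% between -0.83 and 1.59, and the spike-in slope was out of range in fraction 1 and in range in fraction 3. Hoxb7 was at least 137-fold and Hoxb3 at least 83.7-fold lower in fraction 3. The rank correlation with paralogue number was 0.42 over 13 measured genes of groups 1 to 8, with 6 bounds left out, and -0.09 over all 15 measured genes. All of these genes share the same 2 arrays.

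**Figure D3:**
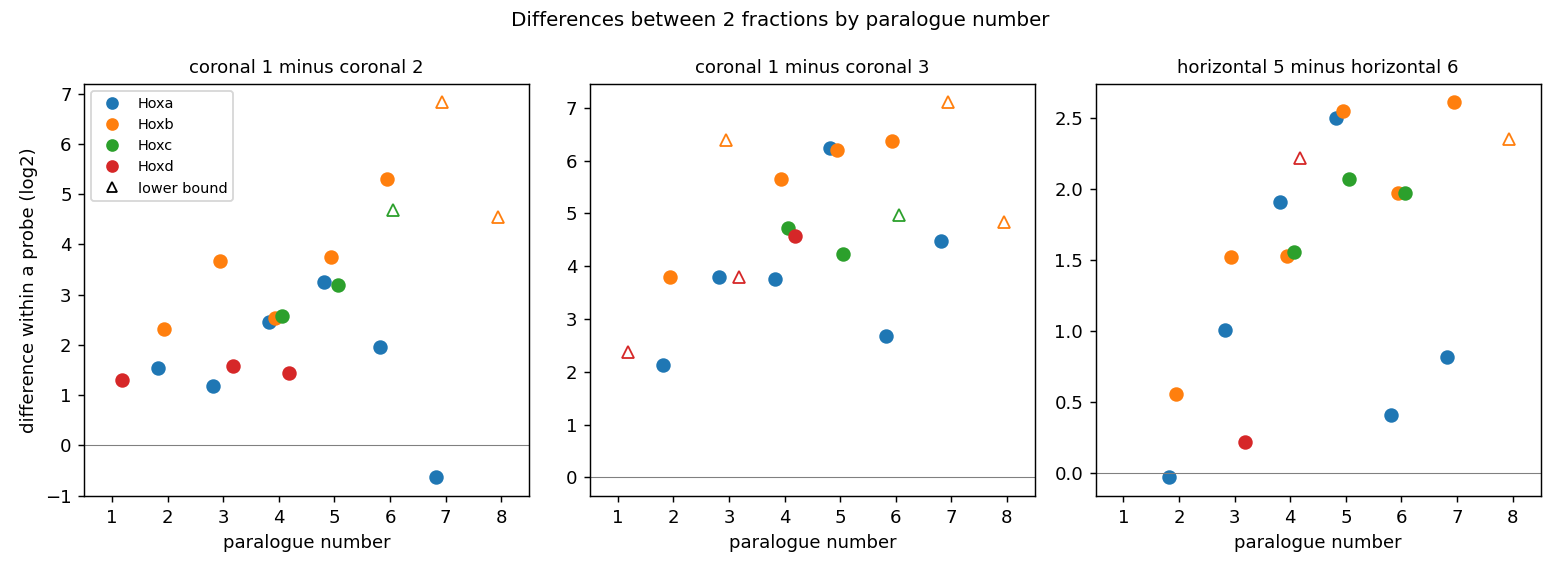
Difference within a probe between 2 fractions (log2, vertical axis) against paralogue number (horizontal axis) for genes of groups 1 to 8, coloured by cluster, with open triangles for lower bounds where the second fraction was not well above background. In Hoxb the coronal 1 to 2 step ran from 2.31 for Hoxb2 to 5.31 for Hoxb6.

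In the horizontal series most of these genes peaked in fraction 5. Of 22 members of groups 1 to 8, 18 were detected in horizontal fraction 5, and 16 of those were highest there. Fraction 2 detected 5 of the 7 genes of groups 1 to 3, as many as fraction 5, and 4 of the 7 of groups 4 to 5. Of all probes, fraction 2 detected 75.5% and fraction 5 detected 53.9%. The spike-in slope was out of range in fraction 2 and in range in fraction 5. Hoxa3 was higher in fraction 2 (-1.58) than in fraction 4 (-2.11), and Hoxd4 was detected in fraction 2 (-2.31) and fraction 5 (-1.94) only. Hoxb5 had -0.02, 1.52 and -1.03 in fractions 4, 5 and 6, was -4.38 in fraction 2, and was not detected in fractions 1 and 3. Hoxc4 had -0.43, 1.45 and -0.11 in fractions 4 to 6 and Hoxa5 had -1.27, 0.04 and -2.45. Hoxb7 had -1.53, -1.05 and -3.66 in these 3 fractions and was not detected in fractions 1 to 3.

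No Hox gene passed the horizontal test (0 of 26, limma, against 6.57% of all probes). At an unadjusted p under 0.05 there were 12, or 46.2%, against 38% of all probes (15041 of 39621). With a107 as a covariate there were 2, against 6035 of the 39621 probes. Without the 7 arrays there were 2, against 2297 of the 39621 probes. The nearest to the threshold was Hoxc12 (adjusted p = 0.0502), and Hoxa2 had 0.0577, Hoxc4 0.0588 and Hoxb2 0.0593. The count was 6 under quantile normalization (8.14% of all probes), 6 without coronal fraction 2 (16.5%) and 4 without horizontal fraction 6 (2.81%), and the second Hoxb3 probe, which is not the one counted, passed (adjusted p = 0.0376). A value of 0 of 26 does not show that levels were even along the horizontal axis.

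The balance between horizontal fractions 5 and 6 differed among genes. Level in fraction 5 minus fraction 6 was -0.03 for Hoxa2, 0.22 for Hoxd3, 0.56 for Hoxb2, 1.01 for Hoxa3 and 1.52 for Hoxb3. It was 1.53 for Hoxb4, 1.56 for Hoxc4, 1.91 for Hoxa4, 2.5 for Hoxa5, 2.55 for Hoxb5 and 2.61 for Hoxb7, while Hoxb8 was at least 5.09-fold and Hoxd4 at least 4.67-fold lower in fraction 6. The median was 0.56 in groups 1 to 3, 1.99 in groups 4 to 5 and 1.97 in groups 6 to 8, with a rank correlation of 0.55 with paralogue number over 16 measured genes of groups 1 to 8. Over all 18 measured genes it was 0.08, with Hoxa9 at -0.06 and Hoxc12 at -1.24. Hoxa6 (0.41) and Hoxa7 (0.82) also lay low.

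Fraction 5 minus fraction 4 was 1.61 for Hoxa2, 1.64 for Hoxb2 and 0.78 for Hoxb3. It was 0.67 for Hoxb6, 1.66 for Hoxc6, 0.47 for Hoxb7 and 0.82 for Hoxb8. The rank correlation with paralogue number was -0.55 over 16 measured genes of groups 1 to 8 and -0.68 over all 18, with Hoxc12 at -0.21 and Hoxa9 at 0.45. These correlations across genes are descriptions, since all genes share the same arrays. None of these 3 fractions was among the 7 arrays with the spike-in slope out of range, and all 3 were on 1 slide.

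In the sagittal series the genes of groups 4 to 5 were found in the middle fractions. Hoxb5 had 0.36, 0.29, 0.11 and -0.8 in sagittal fractions 2 to 5 and -3.27 in fraction 6, and was not detected in fraction 1. Hoxb4 had -1.27, -0.94, -1.18 and -2.32 in fractions 2 to 5 and was not detected in fractions 1 and 6. Hoxb8 had -4.31 and -3.49 in fractions 2 and 3 and Hoxc6 had -5.05, -2.6 and -3.24 in fractions 2 to 4. Groups 4 to 5 had all 7 genes detected in fractions 2 to 5, against 2 in fraction 1 and 2 in fraction 6. Of all probes, 56.4% to 65.4% were detected in fractions 2 to 5, 69.7% in fraction 1 and 56.6% in fraction 6.

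The sagittal course did not pass for these genes. The curved term passed for 0 of 26 Hox genes (limma, 0.0303% of all probes), with 9 (34.6%) at an unadjusted p under 0.05 against 14.8% of all probes, and the straight term for 1 of 26 (10.2% of all probes). The curved term was negative, that is higher in the middle, in 7 of the 9 and positive for Hoxa13 (1.85) and Hoxc10 (1.39). Without the 7 arrays the 9 became 1, and the count over all 39621 probes went from 5859 to 2713. The gene that passed the straight term was Hoxc12, with -3.5 or less in sagittal fractions 1 to 5 and -1.92 in fraction 6 (adjusted p = 0.0102, limma). This term was fitted to the 6 sagittal arrays of 1 mouse, and the rest of the 22 arrays added only to the estimate of scatter. Hoxc12 lost the call without sagittal fraction 6 (adjusted p = 0.67), with a107 as a covariate (0.0556), without the 7 arrays (0.0672), with a straight term only (0.0668), with the sagittal arrays alone (0.0562), under quantile normalization (0.11) and without scaling (0.218).

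Several genes of groups 9 to 13 were detected mainly on the 7 arrays with the spike-in slope out of range, which detected 36119 to 41965 probes each, against 29605 to 36342 on the other 15. Hoxb9, a thoracic spinal cord gene in the embryo, was detected on all 7 (levels -3.64 to 0.25) and on 2 of the 15. Hoxc13 was detected on all 7 (-3.43 to -0.83) and on 1 of 15. Hoxc10 was detected on 6 of 7 and on 0 of 15, Hoxa13 on 5 of 7 and 2 of 15 (its second probe had r = 0.54 with it), and Hoxa10 on 4 of 7 and 2 of 15. Hoxd11 went the other way (0 of 7 and 3 of 15), and Hoxc12 was detected on 7 of 7 and 13 of 15. In horizontal fraction 1, for example, 6 genes of groups 9 to 13 were detected and 2 of the 7 genes of groups 4 to 5, and in horizontal fraction 5 the counts were 4 and 7.

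Hoxa7 was detected everywhere, but its levels were -1.84 to 0.96 on the 7 arrays and -4.45 to -0.36 on the 15. By contrast Hoxb5 was detected on 4 of 7 and 11 of 15, Hoxc4 on 4 of 7 and 10 of 15, and Hoxb4 on 3 of 7 and 8 of 15. The a107 signal was higher on each of the 7 arrays than on any of the 15, and its part in the levels of these genes was not tested. Hoxc10, 1 of the 2 genes of groups 9 to 13 that passed the coronal test (adjusted p = 0.0203), kept the call under 6 of 13 alternatives. Its adjusted p was 0.0833 with a107 as a covariate, 0.108 under quantile normalization, 0.117 with slide as a block, 0.428 with a straight term only, 0.0886 with the coronal arrays alone, 0.0586 with those of one slide and 0.0521 without coronal fraction 6, and without the 7 arrays it was 0.113 with the straight term turned. The other, Hoxa9, was detected on all 22 arrays within a narrow range of -4.16 to -3.34, and a second Hoxa9 probe did not follow it (r = 0.185). Its adjusted p was 0.0226 and became 0.374 with arrays centred on their medians, and it kept the call under 4 of 14 alternatives.

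**Figure D4:**
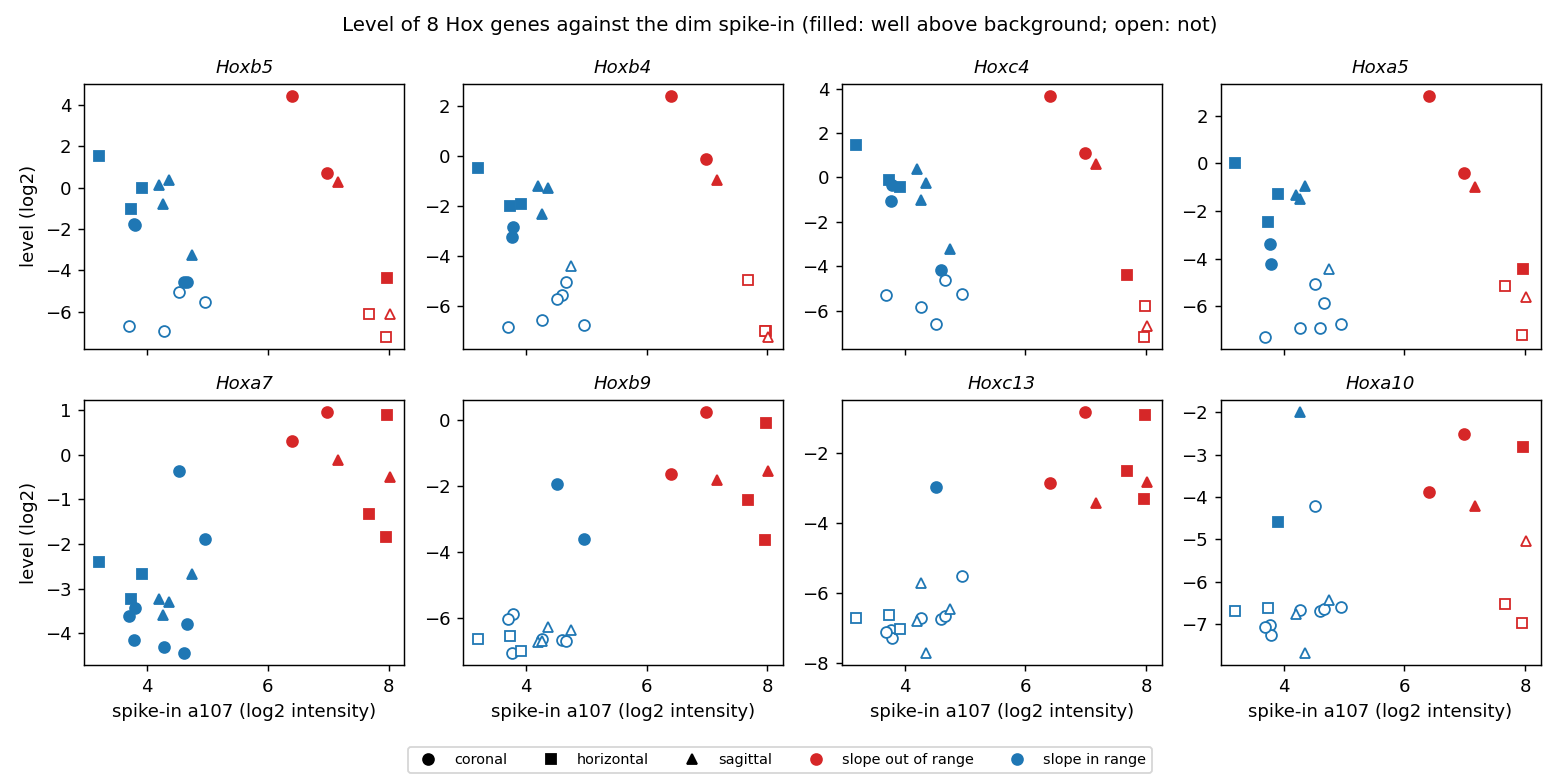
Level of 8 Hox genes (log2, vertical axes) against the dim spike-in a107 (log2 intensity, horizontal axes) on the 22 arrays, red where the spike-in slope was out of range and blue where it was in range, with filled symbols where the gene was well above background. Hoxb9 and Hoxc13 were detected on all 7 red arrays, whereas Hoxb5, Hoxb4, Hoxc4 and Hoxa5 were spread over both colours.

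Hox genes were correlated with each other over the 22 fractions, which share 3 mice and 4 slides. Of 325 pairs among the 26 genes, 48 had Pearson's r above 0.85, or 14.8%, against 1.91% of all pairs of detected probes. The highest were Hoxb4 with Hoxc4 (r = 0.977), Hoxb2 with Hoxb5 (0.973), Hoxb4 with Hoxb5 (0.971) and Hoxa5 with Hoxb5 (0.969). Hoxa5 and Hoxb6 had 9 Hox partners each. A separate knot joined Hoxb9 with Hoxc13 (0.957), Hoxa7 with Hoxb9 (0.951) and Hoxa7 with Hoxc13 (0.916). It also joined Hoxb1 of group 1 with Hoxc13 (0.901) and Hoxb9 (0.866). Hoxb9 and Hoxc13 were detected on all 7 arrays with the spike-in slope out of range, and Hoxa7 had a median of -0.12 there and -3.31 on the other 15. Hoxb1 was detected on 3 of the 7 and on 0 of the 15. Hoxa6, Hoxa9, Hoxa10, Hoxa13, Hoxc10, Hoxc12 and Hoxd3 had no partner.

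Outside the clusters 1258 gene symbols had r above 0.85 with at least 1 Hox gene. Mal, a myelin proteolipid gene, had r above 0.85 with 7 Hox genes, and Mobp (6), Mog (5) and Trf (5) are also genes of myelinating cells. Phox2a, a transcription factor gene of noradrenergic and cranial motor neurons, and Pax8, a transcription factor gene expressed in the hindbrain and spinal cord, had 6 each. Tmem88b and Npb had 6 and Calcb, which encodes a neuropeptide of the calcitonin gene-related family, had 5. These genes were chosen for their correlation with Hox genes on the same arrays, so their own course is a description. Mal had 4.52, 3.11 and 3.44 in coronal fractions 1 to 3 and 0.14 in fraction 10. A non-coding interval designed on build mm9 at chr15:102926581-102932542 followed 8 Hox genes, and its place relative to annotated genes of that build was not analysed here.

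Cofactors and regulators of Hox genes were counted by list, beside 19.8% of all probes that passed the coronal, 6.57% the horizontal and 10.2% the straight sagittal test. Of 9 genes of the Pbx, Meis and Pknox families, which encode DNA-binding partners of Hox proteins, all were tested; 3 rose and 2 fell along the coronal series. Meis1 fell (3.37 in fraction 1, 3.89 in fraction 3 and 2.43 in fraction 10, adjusted p = 0.0101) and Meis2 rose (2.88 in fraction 1 and 5.29 in fraction 10, adjusted p = 0.00238). Pknox1 fell by its straight term though it was highest in fraction 10, and Pbx2 and Pknox2 rose. Along the horizontal series Pbx3 and Meis1 rose by the straight term, though Meis1 was highest in fraction 3 (3.02) and had 1.6 in fraction 6. Of 17 upstream regulators, 11 were tested, and 4 rose (Egr2, Rara, Rarg and Rxrb) and 1 fell along the coronal series. Aldh1a2, which encodes a retinoic acid synthesising enzyme, rose along the horizontal series by the straight term. It had 2.22 in horizontal fraction 1, 0.64 in fraction 3 and 3.62 in fraction 6.

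Otx2, a gene of the forebrain and midbrain in the embryo, was the one that fell: it had 2.6, 3.49 and 2.93 in coronal fractions 1 to 3 and -0.57 in fraction 10. Among Polycomb and trithorax genes, which maintain the silent and active states of Hox clusters, 16 of 18 were tested, Ezh1 and Pcgf2 rose along the coronal series and 0 fell, a share below that of all probes. Men1 rose along the horizontal series, and Phc1 and Kdm6b fell along the straight sagittal term, counts of 1 and 2 of 16 that lay near the shares of all probes. Of 16 non-coding genes of the clusters 2 were found on the array by symbol. Hoxa11os was detected in all 22 fractions and did not pass the coronal test (adjusted p = 0.492), and Hoxd3os1 was not tested.

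Markers of cells other than brain tissue were followed in coronal fraction 1, where most Hox levels peaked. Of the genes followed, Prph, Hba-a1 and Col2a1 fell along the coronal series and Sp7, Myh3 and Acta1 rose. Among 3 sensory ganglion markers, Prph fell (1.65 in fraction 1 and -2.14 in fraction 10, adjusted p = 0.000683, limma), Scn10a was not detected in fractions 1 to 5 and read -3.42 in fraction 7 (adjusted p = 0.0918), and Avil was detected in no fraction. The list's summed level, most of it Prph, in units of the array's 75th percentile, was 3.2 in fraction 1, 1.8 in fraction 2 and 0.316 to 1.63 in the other 8. Blood and marrow markers summed to 64 in fraction 1, 56.6 in fraction 2 and 16.7 to 51.3 elsewhere, mostly the haemoglobin gene Hba-a1, which had 5.94 in fraction 1 and 4.01 in fraction 10 (adjusted p = 0.00378). The cartilage collagen gene Col2a1 had 0.61, 1.35 and 1.34 in fractions 1 to 3 and -0.97 in fraction 10 (adjusted p = 0.00604). Bone and cartilage markers summed to 1.89, 3.01 and 0.548 to 2.71, skeletal muscle markers to 0.664, 0.373 and 0.574 to 2.19, and meningeal fibroblast markers to 39.7, 32.6 and 29 to 94. The part of these cells in the Hox levels was not tested.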

How the data were processed

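Total RNA of 22 brain fractions from 3 mice was labelled with Cy3 and hybridised to Agilent 1-colour arrays designed on mm9. Per the file headers, the authors extracted spots with Feature Extraction 10.10.1.1, and the deposited intensity of a spot is the background-subtracted processed signal on a linear scale. The deposited flags for outlier, saturated and well above background spots are codes of the same software (other columns, per the file headers). A value table deposited beside the scanner files is in log2 units, and 99.899% of its values lay within 0.02 of the levels computed here.

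Outlier and control spots were left out, spots of a probe were averaged, and levels were scaled on a log2 basis to the 75th percentile of each array, with no pseudocount. Gene names came from RefSeq accessions, and 41 RefSeq probes belonged to the 38 members, 3 of which had more than 1 probe. Where a probe was below background in the lower fraction, its difference was taken against the higher of its own signal and the lowest signal well above background on that array. Position was tested with limma 3.58.1 in R 4.3.3, with a straight and a curved term per series and 13 residual degrees of freedom, over 39621 probes. The script was tested on simulated data. Since fractions are positions and not replicates, p-values ask whether the fitted straight and curved terms differ from 0, judged against the scatter around the curve. Probes spotted 10 times had a median spot SD of 0.061 log2 units above level 0, 0.103 between -3 and 0 and 0.292 between -6 and -3. Python 3.11 libraries pandas and matplotlib gave descriptions and plots.

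Members, lists and tests were chosen with earlier results of these data known. Genes named were all Hox genes that passed a test or were detected in the coronal series, and genes of the listed regulator families that passed a test. Also named were 9 of the 10 symbols outside the clusters with r above 0.85 to the largest numbers of Hox genes, at most 7. Marker genes of regions and other cells were named as examples. The normexp alternative used the median spot signal in place of the planned mean spot signal. Other alternatives were other scalings and filters, the deposited table, a107 as a covariate, slide as a block, and leaving out single fractions. Protein sequences were not used here. Some genes of the lists and 1 correlated gene are not reported here, and the counts of each list leave them out.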

Additional observations from a re-analysis of the deposited data

Results flagged for a closer look

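Each of the 26 tested Hox genes was examined in each series for 1 fraction far from the others (Dixon's test, gap to the nearest value over the range), which chance flags in about 1 in 20 groups. Of 78 groups, 6 were flagged. In the coronal series fraction 1 stood apart for Hoxb6 (3.65, next -1.66), Hoxb7 (2.1, next -3.14), Hoxb8 (-0.17, next -5.94) and Hoxc6 (-0.04, next -5.46). Fraction 2 stood apart for Hoxb1 (-3.01, next -5.05), and sagittal fraction 6 for Hoxc12 (-1.92, next -3.5). All 6 values were well above background. The cause was not tested.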

How the results depend on the processing

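The coronal count of 16 Hox genes was within 1.5 times of that under the other scalings, the deposited table, normexp, no filter, a107 as a covariate, slide as a block and probe means. The share of all probes, 19.8% as reported, ran in these fits from 4.03% with slide as a block (12 Hox genes) to 23.4% with normexp (20 Hox genes). With no filter 17 of 38 Hox genes passed, against 11.8%. The coronal count was 2 of 3 tested with only probes detected in all fractions (32.8% of all probes in that fit) and 7 with only arrays in the spike-in range (10.4%). It was 10 with a straight term only (7.12%), 10 with the coronal arrays alone (1.6%), and 11 to 17 when single fractions were left out (12.3% to 27%). The horizontal count of 0 became 6 under quantile normalization (8.14% of all probes), 2 without scaling (5.82%), 1 with normexp (5.25%), 2 with slide as a block (13.6%) and 1 with probe means (6.57%). It was 0 to 6 when single fractions were left out (0.0227% to 16.5%). The sagittal straight-term count of 1 was 0 under quantile normalization, without scaling, with only probes detected in all fractions, with a107 as a covariate, with a straight term only and with the sagittal arrays alone, and 0 to 1 when single fractions were left out. With only arrays in the spike-in range it was 1 (8.67%), but that gene was not Hoxc12. The sagittal curved-term count of 0 became 1 with normexp (2.53% of all probes) and stayed at 0 when single fractions were left out (0% to 0.994%). The straight term turned for Hoxa9 under quantile normalization (adjusted p = 0.739). With only arrays in the spike-in range it turned for Hoxa9 (0.173), Hoxa6 (0.297), Hoxc10 (0.113) and Hoxd3 (0.0495), and without coronal fraction 1 for Hoxd3 (0.00351). Leaving out any other single fraction gave Hoxd3 adjusted p between 0.00123 and 0.00511. Correlated pairs were 32.9% of the 325 at r above 0.70 and 8.31% at r above 0.90, against 14.8%, and 10.5% to 16.9% when single fractions were left out. Apart from fewer probes or arrays in some settings, the causes were not tested. No paired analysis was possible because fraction numbers are positions along different axes of different mice. Detection mainly on the 7 arrays out of the spike-in range limits what can be read of several genes of groups 9 to 13.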

Other observations

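Some Hox genes were detected in 1 coronal fraction beyond the first 2. Hoxd3 read -1.11 in coronal fraction 10 and Hoxb7 -3.14 in coronal fraction 6. In the other planes Hoxa10 read -1.99 in sagittal fraction 5 and was also detected in sagittal fraction 3 and horizontal fractions 2 and 4, and Hoxd11 read -2.94 in horizontal fraction 5 and was also detected in sagittal fractions 4 and 6. Hoxa10 on its neighbours, sagittal fractions 4 and 6, was at -6.76 and -6.43 and not detected. These values rest on 1 array each and have no replicate.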
